A study of Mus musculus with 16 samples.

Results

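The messages of 10 RNA-binding proteins that control alternative splicing in a tissue-restricted or developmental manner were followed across the RNA pools of mouse hepatocytes. The 10 genes were chosen by name, as known regulators of this kind: Esrp1, Esrp2, Ptbp1, Ptbp2, Celf1, Mbnl1, Mbnl2, Rbfox2, Khdrbs1 and Qk. They are 10 of the 48158 genes in the deposited table. The filter for low values left 11784 genes that could be tested, 9 of the 10 members among them, and Esrp1 did not pass it. Values are FPKM, fragments per kilobase of transcript scaled for library size, summed over the transcripts of a gene or given for a single transcript.

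Hepatocytes were isolated from FVB mice in the presence of cycloheximide, which holds ribosomes on their messages. The mice had eaten either DDC for 4 weeks or normal chow. DDC is a porphyrinogenic compound that injures liver cells and bile ducts. Polyadenylated RNA was sequenced from cytoplasm and from 3 sucrose gradient fractions: monosomes with 1 ribosome, light polysomes with 2 to 4, and heavy polysomes with more than 5. Each of the 8 groups held 2 libraries, 8 libraries from DDC mice and 8 from chow mice. All groups share the strain and the cycloheximide. The age and sex of the mice are not given in the sources used here. The libraries of a diet's gradient fractions share preparations, the chow preparations carry joined names (CH1_CH2 and CH3_CH4), and no label says that each library came from its own animal. A p-value here thus rests on the spread between libraries, which may be technical. The title of the study concerns translation in proliferating hepatocytes of the regenerating liver.

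Splicing regulators bind short motifs in introns and exons and, by doing so, favour or block the use of a nearby exon. Many act in sets that change together as a tissue matures. Esrp1 and Esrp2 are epithelial splicing regulatory proteins, and in mouse liver Esrp2 rises after birth and sets splice choices of adult hepatocytes. Ptbp1 binds pyrimidine tracts and represses exons, Ptbp2 is its neural relative, and Celf1 and the Mbnl proteins act in opposite directions on many exons during development. Several of these genes carry alternative exons of their own.

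The alternative coding exons below are the places where the members' own transcripts differ in this annotation and where both forms held at least 5% of the gene's cytoplasmic FPKM. They show which exon a value for an included or skipped form refers to. Sequences are spliced transcript sequences from GENCODE M21 on GRCm38, written 5′ to 3′ with the exon in capitals and 15 bases of each neighbouring exon in lower case.
Ptbp1 78-base exon, chr10:79860117-79860194, plus strand: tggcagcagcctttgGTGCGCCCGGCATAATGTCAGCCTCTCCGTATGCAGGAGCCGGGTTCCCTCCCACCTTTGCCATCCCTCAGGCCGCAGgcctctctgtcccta
Ptbp2 34-base exon, chr3:119724612-119724645, minus strand: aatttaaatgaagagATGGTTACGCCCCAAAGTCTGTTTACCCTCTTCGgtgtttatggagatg
Mbnl1 54-base exon, chr3:60614683-60614736, plus strand: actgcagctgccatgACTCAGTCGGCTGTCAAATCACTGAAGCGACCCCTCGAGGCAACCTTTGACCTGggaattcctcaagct
Mbnl1 36-base exon, chr3:60621423-60621458, plus strand: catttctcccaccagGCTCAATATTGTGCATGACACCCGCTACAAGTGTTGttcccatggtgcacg
Mbnl2 36-base exon, chr14:120403336-120403371, plus strand: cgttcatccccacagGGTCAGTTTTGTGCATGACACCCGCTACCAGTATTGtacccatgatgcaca
Rbfox2 40-base exon, chr15:77094451-77094490, minus strand: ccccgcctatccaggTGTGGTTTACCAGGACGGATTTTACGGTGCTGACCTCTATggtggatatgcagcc
The 36-base exons of Mbnl1 and Mbnl2 are identical at 31 of 36 bases. An Mbnl1 exon of 95 bases met the same rule and is not printed. Esrp1, Esrp2, Celf1, Khdrbs1 and Qk had no such exon.

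Celf1-205 and Celf1-204 are shown because they exchange places between libraries. They differ by 12 bases that only Celf1-205 holds, at chr2:91006620-91006631, and 3 bases that only Celf1-204 holds, at chr2:91009202-91009204. Capitals mark the bases that the other transcript lacks.
Celf1-205 at the 12-base difference: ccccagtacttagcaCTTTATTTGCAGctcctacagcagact
Celf1-204 at the 12-base difference: ccccagtacttagcactcctacagcagact
Celf1-204 at the 3-base difference: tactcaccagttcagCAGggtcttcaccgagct

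Some facts of all libraries bear on the results. Summed FPKM ran from 375145 to 1386166 per library, and 1 fragment per kilobase was worth 0.0150 to 0.0789 FPKM, which puts Esrp2 at an estimated 549 to 3178 fragments per library and Qk at 18 to 2303. Sequenced depth itself is not known from these scaled values. The 4 libraries of chow preparation 1 had the Y-linked genes Ddx3y, Eif2s3y, Kdm5d and Uty at 0 and Xist at 0.0394 to 2.44 FPKM. The other 12 libraries had Xist at 0, with Eif2s3y at 4.20 to 34.5 FPKM. Results are therefore also given without these 4 libraries.

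Markers of other liver cells moved with the diet in the hepatocyte preparations. The summed FPKM of a 17-gene Kupffer cell and macrophage list was 775 to 6922 in DDC libraries, against 113 to 541 in chow libraries. For a 15-gene ductal list it was 209 to 626 in DDC libraries, against 24.4 to 128 in chow libraries. A 17-gene stellate and fibroblast list summed to 158 to 302 in DDC and 38.1 to 102 in chow. The 15-gene endothelial list summed to 57.5 to 269 in DDC and 62.0 to 140 in chow, and the 11-gene lymphocyte list to 0.502 to 2.14 in DDC and 0.518 to 3.56 in chow. The 12 genes of the hepatocyte list that the table holds summed to 7956 to 21110 FPKM in DDC and 22071 to 43741 in chow, with genes listed at 0 entered as 0.
In cytoplasm, 8 of 10 tested ductal genes, 13 of 16 macrophage genes and 10 of 15 stellate genes rose in DDC, and 0 of 13 endothelial genes did. Of 9 tested hepatocyte genes, 0 rose and 1 fell, and no lymphocyte gene passed the filter. On heavy polysomes 8 of 10 ductal, 15 of 16 macrophage, 13 of 15 stellate and 3 of 13 endothelial genes rose in DDC, while 3 of 8 hepatocyte genes fell. Of all genes tested, 22.4% passed in either direction in cytoplasm and 24.8% on heavy polysomes. The defining ductal markers were low: Epcam was at 0.333 to 1.60 FPKM in DDC libraries and at 0 in all 8 chow libraries. Krt19 reached 1.25 FPKM in DDC and 0.0550 in chow. Adgre1 and Clec4f, of macrophages, were at 1.00 to 3.96 and 50.0 to 479 FPKM in DDC, against 0 to 0.790 and 11.7 to 142 in chow. Col1a1 and Lrat, of stellate cells, were at 0.971 to 5.13 and 0.201 to 1.49 FPKM in DDC, against 0 to 0.189 and 0 to 1.03 in chow. Pecam1 and Stab2, of endothelium, were at 2.11 to 3.40 and 0.311 to 1.34 in DDC, against 0.753 to 1.84 and 0.305 to 0.751 in chow. Cd3e stayed at or below 0.225 FPKM in DDC and 0.535 in chow.
Of the defining hepatocyte genes, Ttr was at 1965 to 12405 FPKM in DDC and at 0 to 33760 in chow, where 2 libraries list it at 0. Apoa1 is listed at 0 in 6 of 8 DDC and 2 of 8 chow libraries, so a 0 here can be a failed estimate and lowers the hepatocyte sums of those libraries. The part of these cells in the results was not tested. In bulk RNA, fewer cells of a type and less of a message per cell cannot be told apart.

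**Figure D1:**
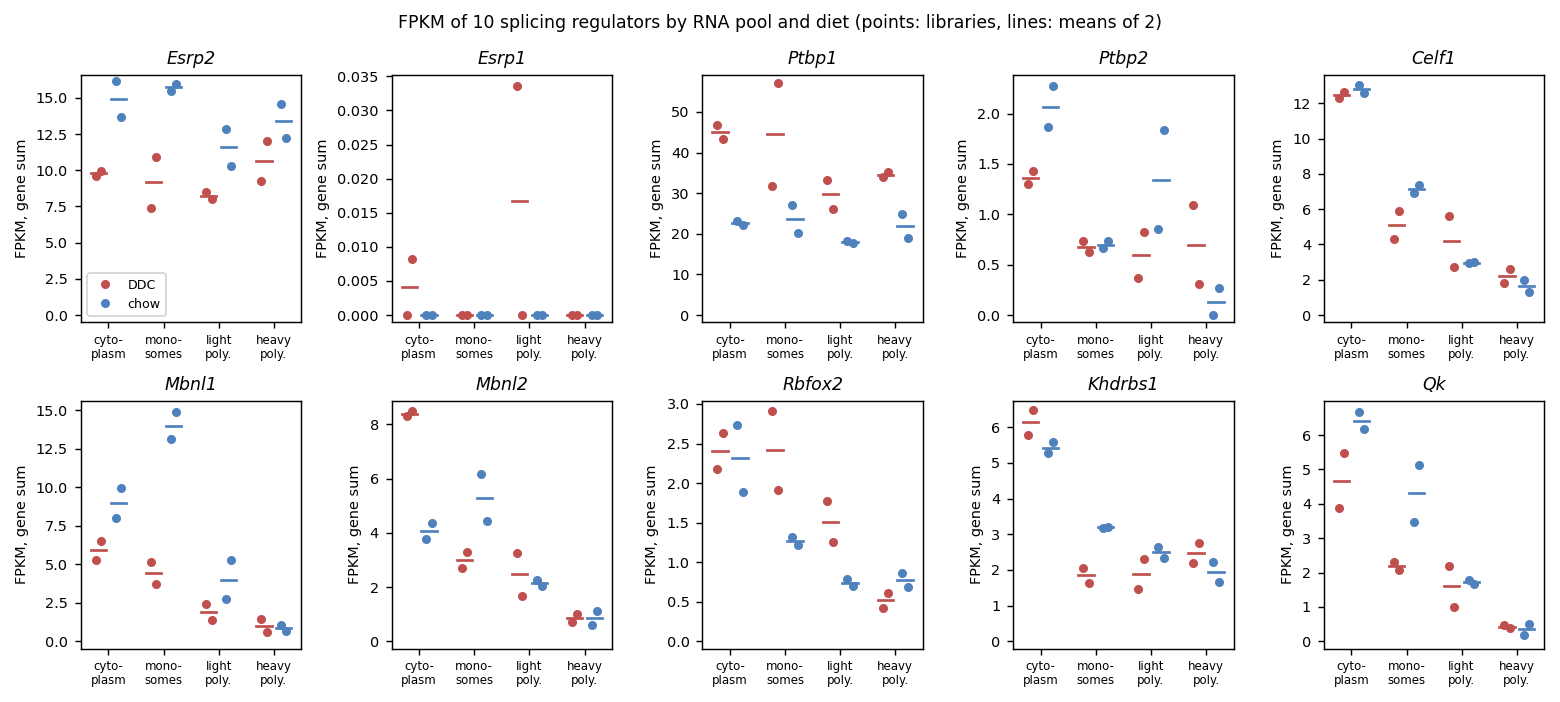
FPKM of each of the 10 genes (vertical axis, gene sum on a linear scale that differs between panels) in cytoplasm, monosomes, light polysomes and heavy polysomes, with DDC in red and chow in blue. Points are libraries and lines are means of 2. Esrp2 lies lower and Ptbp1 higher in DDC in every pool on the deposited scale, and Celf1, Mbnl1, Mbnl2 and Qk are lowest on heavy polysomes; the Esrp2 direction on heavy polysomes turns when libraries are scaled to equal totals.

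Esrp2, the epithelial regulator of the adult hepatocyte, was lower in DDC than in chow in every pool on the deposited scale, although its direction on heavy polysomes turned when all libraries were scaled to the same total. On monosomes it was at 7.41 and 10.9 FPKM in DDC libraries, against 15.5 and 15.97 in chow libraries. In cytoplasm it was at 9.63 and 9.98 FPKM in DDC, against 16.2 and 13.7 in chow. The highest DDC library was below the lowest chow library in both pools. On light polysomes Esrp2 was at 8.48 and 8.01 FPKM in DDC, against 12.9 and 10.3 in chow. On heavy polysomes it was at 9.27 and 12.1 FPKM in DDC, against 14.6 and 12.2 in chow. The diets thus did not overlap in any of the 4 pools, and the gap on heavy polysomes was narrow. Of all genes tested, 11.9% were lower in DDC without overlap in all 4 pools. A lack of overlap in a single pool, here and below, describes 2 against 2 libraries and is no test. Its share over all genes was not counted.
The monosome difference passed the test, at -0.74 ± 0.23 (SE) on the scale of log2(FPKM + 1), with an adjusted p of 0.0253 (limma, Benjamini-Hochberg over all genes). The differences in cytoplasm (-0.56, adjusted p = 0.107), on light polysomes (-0.44, adjusted p = 0.172) and on heavy polysomes (-0.31, adjusted p = 0.363) did not pass by limma. Whether the diet difference of Esrp2 was itself larger on monosomes than in cytoplasm was tested too, and that value, -0.18 ± 0.33, did not pass (adjusted p = 0.858, limma).
The monosome call ended with equal totals (-0.47, adjusted p = 0.212 by limma), in a fit to the compared groups only (adjusted p = 0.148), without chow preparation 1 (-0.76, adjusted p = 0.115) and without CHOW monosome library 1 (0.0667), CHOW monosome library 2 (0.0939) or DDC monosome library 1 (-0.49, adjusted p = 0.168). With equal totals the diets overlapped on light and heavy polysomes and the heavy polysome difference was 0.16, and with quantile normalization the cytoplasmic difference passed (-0.71, adjusted p = 0.0345).

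Esrp2-201, the transcript with the full reading frame of 717 codons, held 95.8% to 100% of the Esrp2 sum in the 16 libraries. Its monosome difference of -0.77 ± 0.24 passed the test across transcripts (adjusted p = 0.0396, limma), as did 22.7% of all transcripts tested there. The other Esrp2 rows among the 4 highest, Esrp2-205 and Esrp2-204 with retained introns and the shorter coding Esrp2-207, held at most 4.23% of the sum. Esrp1, the relative of Esrp2 that prevails in many other epithelia, was above 0 in 2 of 16 libraries and reached 0.0336 FPKM, an estimated 6 fragments. Both libraries with a value were from DDC mice, in cytoplasm and on light polysomes, and the level is too low for a comparison.

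Ptbp1, the pyrimidine-tract repressor of exons, was higher in DDC than in chow in every pool. In cytoplasm it was at 46.7 and 43.4 FPKM in DDC, against 23.2 and 22.3 in chow. On monosomes it was at 31.9 and 57.2 FPKM in DDC, against 27.0 and 20.3 in chow. Cytoplasmic replicates lay close together, while the DDC monosome libraries stood far apart. On light polysomes Ptbp1 was at 33.2 and 26.2 FPKM in DDC, against 18.3 and 17.6 in chow. On heavy polysomes it was at 33.9 and 35.2 FPKM in DDC, against 24.8 and 18.9 in chow. Every DDC library was above both chow libraries of its pool, with equal totals too, and 17.2% of all genes tested were higher in DDC without overlap in all 4 pools.
The rise passed the test in cytoplasm (0.95 ± 0.27, adjusted p = 0.0259, limma) and on monosomes (0.84 ± 0.27, adjusted p = 0.0300), and the light polysome (0.68, adjusted p = 0.0772) and heavy polysome (0.65, adjusted p = 0.104) differences did not pass by limma. Equal totals moved the median of all genes between the diets to 0.19 in cytoplasm and 0.29 on heavy polysomes, and under them the light polysome (1.01, adjusted p = 0.0242, limma) and heavy polysome (1.13, adjusted p = 0.0180) differences of Ptbp1 passed as well, above that shift.
The cytoplasmic call of Ptbp1 ended without any 1 of the 4 cytoplasmic libraries (adjusted p 0.0963 to 0.134, limma) and without chow preparation 1 (0.98, adjusted p = 0.158), and the monosome call ended without CHOW monosome library 2 (0.64, adjusted p = 0.180), DDC monosome library 2 (0.43, adjusted p = 0.251) or chow preparation 1 (1.04, adjusted p = 0.0825) and in a fit to the compared groups only (adjusted p = 0.180).

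The macrophage and ductal marker sums rose in the same direction as Ptbp1 in each pool: in cytoplasm the macrophage sum was 775 and 1223 FPKM in DDC, against 150 and 113 in chow. Their part in the Ptbp1 difference was not tested. Ptbp2, the neural relative, was low. It was at 1.30 and 1.43 FPKM in DDC cytoplasm, against 1.87 and 2.27 in chow cytoplasm, and at 1.09 and 0.305 on DDC heavy polysomes, against 0 and 0.265 on chow heavy polysomes. Ptbp2 was at 0.734 and 0.621 FPKM on DDC monosomes, against 0.662 and 0.733 on chow monosomes, and at 0.365 and 0.822 on DDC light polysomes, against 0.857 and 1.83 on chow light polysomes. DDC was the lower without overlap in cytoplasm and on light polysomes and the higher on heavy polysomes, at an estimated 0 to 231 fragments per library. No Ptbp2 difference between the diets passed by limma (adjusted p 0.156 to 0.969 in the 4 pools), and with protein-coding transcripts only the light polysome difference passed (-0.70, adjusted p = 0.0399).

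Mbnl1, which with Mbnl2 promotes adult splice choices and is known from muscle and brain, fell on monosomes in DDC. On monosomes it was at 5.17 and 3.69 FPKM in DDC, against 13.1 and 14.9 in chow. In cytoplasm it was at 5.28 and 6.52 FPKM in DDC, against 8.03 and 9.93 in chow. These groups did not overlap, and the monosome gap was the wider one. On light polysomes Mbnl1 was at 2.44 and 1.37 FPKM in DDC, against 2.72 and 5.28 in chow. On heavy polysomes it was at 1.42 and 0.605 FPKM in DDC, against 1.06 and 0.660 in chow, where the diets overlapped.
The monosome difference of Mbnl1 was -1.48 ± 0.31 (adjusted p = 0.00358, limma), and it passed under all 14 alternatives computed for it, with a range of -1.68 to -1.25 and adjusted p of at most 0.0402. Without chow preparation 1 it was -1.56 (adjusted p = 0.0227, limma). In cytoplasm (-0.53, adjusted p = 0.261) and on light polysomes (-0.76, adjusted p = 0.0885) the difference did not pass by limma. It passed on light polysomes with quantile normalization (-0.92, adjusted p = 0.0443) and without CHOW light polysome library 1 (-1.14, adjusted p = 0.0495). Nearly all Mbnl1 FPKM on monosomes lay in Mbnl1-214, whose own fall of -1.48 ± 0.38 passed across transcripts (adjusted p = 0.0182, limma).

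Mbnl2, the close relative of Mbnl1, rose in cytoplasm in DDC. It was at 8.32 and 8.47 FPKM in DDC cytoplasm, against 3.76 and 4.36 in chow cytoplasm. On monosomes it was at 2.69 and 3.30 FPKM in DDC, against 6.17 and 4.43 in chow. The groups did not overlap in either pool, with DDC the higher in cytoplasm and the lower on monosomes. On light polysomes Mbnl2 was at 3.26 and 1.68 FPKM in DDC, against 2.26 and 2.05 in chow. On heavy polysomes it was at 0.699 and 1.02 FPKM in DDC, against 0.610 and 1.13 in chow, and in these pools the diets overlapped.
The cytoplasmic rise of Mbnl2 was 0.90 ± 0.26 (adjusted p = 0.0293, limma), and the monosome difference of -0.65 ± 0.26 did not pass (adjusted p = 0.0725). The difference between these differences, a comparison added after the values had been seen, was -1.54 ± 0.37 and did not pass either (adjusted p = 0.152, limma), where 0.0426% of all genes passed. The cytoplasmic call of Mbnl2 ended without any 1 of the 4 cytoplasmic libraries (adjusted p 0.0967 to 0.160, limma), without chow preparation 1 (0.81, adjusted p = 0.180) and with a pseudocount of 0.1 (1.03, adjusted p = 0.0822), and with quantile normalization the monosome difference passed (-0.79, adjusted p = 0.0369).

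In all, 2 of 9 tested members rose and 0 fell in cytoplasm, where 22.4% of all genes passed in either direction. On monosomes 1 rose and 2 fell, where 37% of all genes passed. On light polysomes 0 members passed, against 30.1% of all genes, and on heavy polysomes 0 passed, against 24.8%. The members' median difference was -0.04 in cytoplasm, -0.56 on monosomes, -0.11 on light polysomes and 0.09 on heavy polysomes, beside 0.01, 0.04, 0.01 and 0.02 over all genes. Without chow preparation 1, which leaves 1 chow library per pool, assumed to vary like the other groups, 0 members passed in cytoplasm and 1, Mbnl1, on monosomes.

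**Figure D2:**
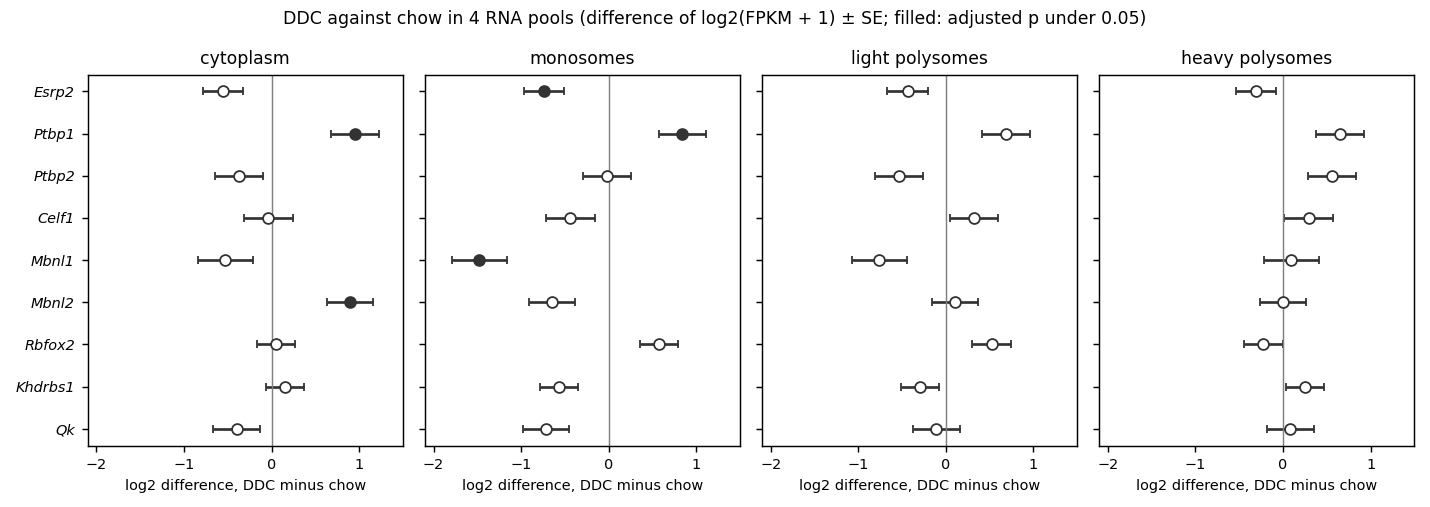
Difference between DDC and chow for the 9 tested members in 4 RNA pools (horizontal axis, DDC minus chow in log2(FPKM + 1), mean with bars of 1 SE from limma). Filled points passed an adjusted p of 0.05: Ptbp1 and Mbnl2 above 0 in cytoplasm, Ptbp1 above 0 and Esrp2 and Mbnl1 below 0 on monosomes. With equal totals the Esrp2 difference on heavy polysomes is 0.16.

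Celf1, a binder of GU-rich RNA that favours fetal splice choices and message decay, passed no test between the diets. It was at 12.3 and 12.6 FPKM in DDC cytoplasm, against 13.05 and 12.6 in chow cytoplasm, a spread of under 1 FPKM over 4 libraries. On monosomes it was at 4.28 and 5.88 FPKM in DDC, against 6.94 and 7.39 in chow. The monosome groups did not overlap, but the difference of -0.44 ± 0.28 did not pass (adjusted p = 0.235, limma). On light polysomes Celf1 was at 5.64 and 2.71 FPKM in DDC, against 2.94 and 3.003 in chow, and on heavy polysomes at 1.84 and 2.63 in DDC, against 1.98 and 1.31 in chow.

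Rbfox2, which binds a GCAUG motif next to many exons, was at 2.91 and 1.91 FPKM on DDC monosomes, against 1.32 and 1.22 on chow monosomes. On light polysomes it was at 1.77 and 1.25 FPKM in DDC, against 0.786 and 0.695 in chow. DDC libraries lay above chow libraries in both pools, and neither difference passed by limma (0.57, adjusted p = 0.0593, and 0.52, adjusted p = 0.0934). On monosomes it passed with equal totals (0.86, adjusted p = 0.0432) and without DDC monosome library 2 (0.79, adjusted p = 0.0387). Rbfox2 was at 2.175 and 2.64 FPKM in DDC cytoplasm, against 2.74 and 1.89 in chow cytoplasm, and at 0.419 and 0.614 on DDC heavy polysomes, against 0.858 and 0.686 on chow heavy polysomes. The cytoplasmic values overlapped, and on heavy polysomes DDC was the lower.

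Khdrbs1, also called Sam68, and Qk, also called quaking, belong to the STAR family of RNA-binding proteins. Khdrbs1 was at 2.06 and 1.63 FPKM on DDC monosomes, against 3.17 and 3.21 on chow monosomes (-0.56, adjusted p = 0.0605, limma). Qk was at 2.32 and 2.06 FPKM on DDC monosomes, against 3.47 and 5.14 on chow monosomes (-0.72, adjusted p = 0.0518). Both were lower in DDC without overlap on monosomes, at 2 against 2 libraries, and both missed the threshold. With quantile normalization both passed (Khdrbs1 -0.73, adjusted p = 0.0194, and Qk -0.87, adjusted p = 0.0273, limma). Qk also passed without CHOW monosome library 1 (-0.95, adjusted p = 0.0379, limma) and without the variance trend (adjusted p = 0.0496). Its coding transcript Qk-201 did not fall on monosomes (0.07, adjusted p = 0.910 across transcripts, limma). The lower Qk sum there lay in Qk-202, which is annotated for nonsense-mediated decay and given below. In cytoplasm Khdrbs1 was at 5.79 and 6.49 FPKM in DDC, against 5.27 and 5.58 in chow, and Qk was at 3.88 and 5.47 in DDC, against 6.67 and 6.16 in chow. DDC was thus above chow for Khdrbs1 and below chow for Qk, in differences that did not pass (adjusted p = 0.676 and 0.317, limma). On heavy polysomes Khdrbs1 was at 2.20 and 2.77 FPKM in DDC, against 2.23 and 1.66 in chow, and Qk was at 0.464 and 0.389 in DDC, against 0.196 and 0.517 in chow. On light polysomes Khdrbs1 was at 1.45 and 2.32 FPKM in DDC, against 2.64 and 2.35 in chow, and Qk at 2.20 and 0.999 in DDC, against 1.78 and 1.67 in chow.

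Levels per length can be ordered in cytoplasm. In DDC cytoplasm Ptbp1 was highest at 45.1 ± 2.36 FPKM (SD, n = 2), followed by Celf1 at 12.5 ± 0.212, Esrp2 at 9.80 ± 0.242 and Mbnl2 at 8.39 ± 0.110. In chow cytoplasm Ptbp1 led at 22.7 ± 0.691 FPKM, followed by Esrp2 at 14.9 ± 1.76, Celf1 at 12.8 ± 0.330 and Mbnl1 at 8.98 ± 1.34. The order of Esrp2 and Celf1 was thus not the same in the diets. Khdrbs1, Mbnl1 and Qk overlapped with their neighbours in the DDC order, and Rbfox2 and Ptbp2 overlapped in the chow order. Between the other neighbours the libraries did not overlap.

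Heavy polysomes were then set against monosomes within a diet, which asks where on the gradient a message lies. Celf1, Mbnl1, Mbnl2 and Qk were lower on heavy polysomes than on monosomes in both diets, and Rbfox2 was lower in DDC. Mbnl1 was at 1.42 and 0.605 FPKM on heavy polysomes, against 5.17 and 3.69 on monosomes, in DDC. In chow it was at 1.06 and 0.660 FPKM on heavy polysomes, against 13.1 and 14.9 on monosomes. The fall of Mbnl1 was -1.45 ± 0.31 in DDC (adjusted p = 0.00454, limma) and -3.02 ± 0.31 in chow (adjusted p = 2.58e-05). The pools did not overlap in either diet.
For Qk the difference was -1.16 ± 0.27 in DDC (adjusted p = 0.00604, limma) and -1.96 ± 0.27 in chow (adjusted p = 0.000127). For Mbnl2 it was -1.11 ± 0.26 in DDC (adjusted p = 0.00730) and -1.75 ± 0.26 in chow (adjusted p = 0.000247). Celf1 gave -0.91 ± 0.28 in DDC (adjusted p = 0.0254) and -1.64 ± 0.28 in chow (adjusted p = 0.000575). All 4 were the lower in every heavy polysome library than in any monosome library of their diet. With 2 libraries per pool such a separation is weak evidence, and its share over all genes was not counted. Rbfox2 passed in DDC (-1.16 ± 0.22, adjusted p = 0.00212) and not in chow (-0.36, adjusted p = 0.214), and the difference between the diets did not pass (adjusted p = 0.177, limma).
In DDC 5 of 9 members fell and 0 rose, where 32.7% of all genes passed. In chow 4 of 9 fell and 0 rose, where 44.8% of all genes passed. The members' median was -0.91 in DDC and -0.59 in chow, beside 0 over all genes in both diets.

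For Esrp2 and Ptbp1 no difference between these pools passed on the deposited scale. Esrp2 was at 9.27 and 12.1 FPKM on heavy polysomes, against 7.41 and 10.9 on monosomes, in DDC, and at 14.6 and 12.2, against 15.5 and 15.97, in chow. Its differences were 0.21 ± 0.23 in DDC (adjusted p = 0.524, limma), which turned to -0.34 with equal totals, and -0.22 ± 0.23 in chow (adjusted p = 0.477). On the deposited scale, mean Esrp2 on heavy polysomes was 1.09 times its cytoplasmic mean in DDC and 0.898 times in chow. Mean Ptbp1 was 0.767 times and 0.960 times. The same ratio was 0.172 in DDC and 0.0956 in chow for Mbnl1, and 0.0912 in DDC and 0.0555 in chow for Qk. The Esrp2 and Ptbp1 ratios depend on the scale. With equal totals Esrp2 was at 8.511 and 14.08 on heavy polysomes, against 21.58 and 26.67 in cytoplasm, in DDC. In chow it was at 10.56 and 9.004, against 36.28 and 27.41. For Ptbp1 every heavy polysome library was likewise below both cytoplasmic libraries of its diet under that scaling. The Mbnl1 and Qk ratios are given on the deposited scale only. With equal totals, which moved the median of all genes on heavy polysomes against monosomes to -0.39 in DDC and -0.38 in chow, Ptbp1 also passed in DDC (-0.88, adjusted p = 0.0396, limma). In chow Esrp2 (-0.96, adjusted p = 0.0154, limma), Ptbp1 (-0.87, adjusted p = 0.0348), Ptbp2 (-0.79, adjusted p = 0.0445) and Khdrbs1 (-1.07, adjusted p = 0.00611) passed as well under that scaling, and Ptbp2 with a pseudocount of 0.1 (-2.06, adjusted p = 0.0265). With protein-coding transcripts only, the smaller part of Ptbp1 in these pools, its difference in chow turned to 1.34 and did not pass.
The DDC calls of Celf1 (adjusted p = 0.133), Mbnl1 (0.0682), Mbnl2 (0.0649) and Rbfox2 (0.0611) ended in a limma fit to the compared groups only, that of Celf1 also without DDC monosome library 2 (-0.72, adjusted p = 0.143) or DDC heavy polysome library 1 (-0.73, adjusted p = 0.144), and that of Mbnl2 without DDC heavy polysome library 1 (adjusted p = 0.05002). With protein-coding transcripts only the Qk calls ended (-0.59, adjusted p = 0.0664 in DDC, and -0.49, adjusted p = 0.0990 in chow, limma), and without chow preparation 1 the 4 chow calls held (adjusted p 0.00460 to 0.0391).

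The diet altered none of these placements past the threshold. The largest was that of Mbnl1, whose difference of heavy polysomes against monosomes was 1.57 ± 0.45 greater in DDC than in chow (adjusted p = 0.0823, limma), where 1.9% of all genes passed. With the preparation as a replicate block the same value had an adjusted p of 0.0498, and with protein-coding transcripts only it was 1.84 (adjusted p = 0.0437). Without chow preparation 1, 0 members passed. The Khdrbs1 difference of heavy polysomes against monosomes was 0.29 ± 0.22 in DDC, which turned to -0.12 with equal totals, and -0.52 ± 0.22 in chow, with a difference between the diets of 0.81 ± 0.31 that did not pass (adjusted p = 0.167). For heavy polysomes against cytoplasm 0 of 9 members differed between the diets, where 0.102% of all genes did.

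**Figure D3:**
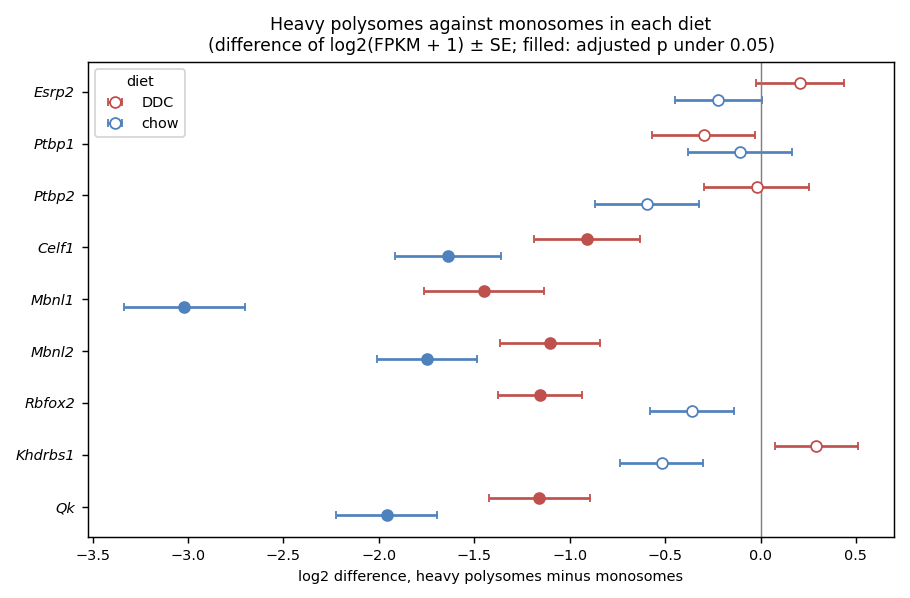
Heavy polysomes minus monosomes in log2(FPKM + 1) for the 9 tested members (horizontal axis, bars of 1 SE from limma), with DDC in red above chow in blue. Filled points passed an adjusted p of 0.05. Celf1, Mbnl1, Mbnl2 and Qk lie below 0 in both diets, with Mbnl1 in chow lowest at -3.02, and Rbfox2 passed in DDC; the small positive Esrp2 and Khdrbs1 values in DDC turn negative when libraries are scaled to equal totals.

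Of 15 members' transcripts tested, 3 passed between the diets on monosomes, where 22.7% of all transcripts did. Qk-202 (-0.90 ± 0.25, adjusted p = 0.0261, limma), Esrp2-201 and Mbnl1-214 were lower in DDC. Qk-202 thus passed where the Qk sum did not, while Ptbp1-213, which held most of Ptbp1 there, did not pass (0.62, adjusted p = 0.296), nor did Mbnl2-202 in cytoplasm (1.02, adjusted p = 0.0904), although the gene sums did. Each monosome call ended when some of the monosome libraries were left out, with adjusted p of up to 0.193 for Esrp2-201, 0.154 for Qk-202 and 0.0987 for Mbnl1-214, and with equal totals (0.262, 0.124 and 0.0591 in the same order). With a pseudocount of 0.1 Qk-202 (adjusted p = 0.0586, limma) and Mbnl1-214 (0.0682) did not pass, and with a filter of 0.1 FPKM Esrp2-201 (0.0538) did not.
On heavy polysomes against monosomes in DDC Qk-202 (-0.94, adjusted p = 0.0261, limma), Rbfox2-203 (-1.14, adjusted p = 0.0460), Mbnl2-202 (-1.11, adjusted p = 0.0478) and Mbnl1-214 (-1.45, adjusted p = 0.0243) fell, where 18.1% of all transcripts passed. Of 8 alternatives the call held in 2 for Rbfox2-203, in 1 for Mbnl2-202, in 4 for Qk-202 and in 6 for Mbnl1-214. The calls of Rbfox2-203, Mbnl2-202 and Qk-202 ended without any 1 of the 4 libraries compared, with adjusted p of up to 0.173, 0.176 and 0.0882 by limma, and that of Mbnl1-214 without DDC monosome library 1 (0.116) or DDC heavy polysome library 2 (0.129). The replicate block ended that of Mbnl2-202 (adjusted p = 0.0610), a pseudocount of 0.1 those of Rbfox2-203 (0.0852) and Mbnl2-202 (0.0557), and a filter of 0.1 FPKM those of Rbfox2-203 (0.0785) and Mbnl2-202 (0.0716). In chow Qk-202 (-1.95, adjusted p = 0.000245, limma), Mbnl2-202 (-1.75, adjusted p = 0.00285) and Mbnl1-214 (-3.33, adjusted p = 0.000126) fell, where 31.5% passed, and these held in all 8 alternatives.

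In the ribosome fractions most Ptbp1 FPKM lay in a transcript that is not annotated as coding. Ptbp1-213 is annotated as a retained-intron transcript of 2108 bases, of which 1707 lie in exons of the coding Ptbp1-202 or Ptbp1-216 and 401 in an intron those remove (chr10:79862048-79862448). It held 64.5% and 28.3% of the Ptbp1 sum in DDC cytoplasm, against 37.1% and 51.2% in chow cytoplasm. On monosomes it held 85.4% and 73.9% in DDC, against 95.2% and 90.3% in chow. The cytoplasmic shares overlapped between diets, and the monosome shares were lower in DDC. On heavy polysomes Ptbp1-213 held 86.4% and 65.2% in DDC, against 71.3% and 74.2% in chow, again with overlap.
Protein-coding transcripts held 10.6% and 24.7% of Ptbp1 on DDC monosomes, against 4.83% and 0.00106% on chow monosomes. On light polysomes they held 19.6% and 26.3% in DDC, against 7.44% and 6.05% in chow. On these fractions the DDC shares lay above the chow shares. On heavy polysomes they held 13.6% and 34.8% in DDC, against 9.62% and 17.7% in chow, and in cytoplasm 35.1% and 69.1% in DDC, against 60.3% and 45.1% in chow, with overlap in both pools. Summed over protein-coding transcripts only, the Ptbp1 difference between DDC and chow passed on monosomes (2.43, adjusted p = 0.00633, limma) and light polysomes (1.80, adjusted p = 0.0332) and did not pass in cytoplasm (0.85, adjusted p = 0.318). Since most bases of Ptbp1-213 are shared, these shares depend on how the authors' software divided fragments between transcripts, and that was not tested.

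The 78-base Ptbp1 exon, printed above, lengthens the linker between RNA recognition motifs of the protein. Among transcripts that span it, 21.8% and 26.2% of FPKM included it in DDC cytoplasm, against 46.6% and 35.4% in chow cytoplasm. The diets did not overlap in this pool. On DDC monosomes 27.5% and 24.3% included it, against 35.1% and 0% on chow monosomes, where the FPKM of spanning transcripts was low. In DDC monosome library 1 the including 1.28 FPKM lay in Ptbp1-207, annotated for nonsense-mediated decay, and the coding Ptbp1-216 was at 0. These shares carry no test. For the 34-base Ptbp2 exon, whose skipping shifts the reading frame, the included share was 97.4% and 61.7% in DDC cytoplasm and 67.9% and 54.8% in chow cytoplasm.

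The 54-base Mbnl1 exon and the 36-base Mbnl2 exon were mostly included in cytoplasm, and the 36-base Mbnl1 exon was mostly skipped. The 54-base Mbnl1 exon, linked to nuclear localisation of the protein, was included at 98.9% and 89.1% in DDC cytoplasm, against 89.2% and 91.1% in chow cytoplasm. The 36-base Mbnl1 exon was included at 1.1% and 10.7% in DDC cytoplasm, against 10.5% and 8.7% in chow cytoplasm. The 36-base Mbnl2 exon, its close match in sequence, was by contrast included at 94.1% and 75.2% in DDC cytoplasm, against 65.2% and 81.6% in chow cytoplasm. The diets overlapped for all 3. The 40-base Rbfox2 exon was included at 61.4% and 66.6% in DDC cytoplasm, against 78.3% and 91.7% in chow cytoplasm, without overlap. In the ribosome fractions transcripts with the exon summed to at most 1.55 FPKM and the share ran from 0.00855% to 99.95% between libraries.

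Celf1 showed how far transcript rows can move between libraries whose gene sums lay closer together, as on DDC monosomes at 4.28 and 5.88 FPKM. Celf1-205 held 55.7% and 71.9% of the sum in DDC cytoplasm, against 58.9% and 61.5% in chow cytoplasm. On monosomes Celf1-204 was at 4.15 and 0.000496 FPKM in DDC, against 6.47 and 6.30 in chow, and Celf1-205 was at 0.0151 and 5.14 in DDC, against 0.0151 and 0.0152 in chow. On DDC monosomes the exchange fell between libraries of the same group, and the sequences of the transcripts differ by the 12 and 3 bases shown above. On heavy polysomes the DDC libraries were exchanged in the same way, with Celf1-204 at 1.79 and 0.000129 FPKM. In chow the libraries of a pool were alike and the exchange fell between pools. Celf1-205 held 87.0% to 96.9% of the sum on chow light polysomes, against 0.781% to 1.19% on chow heavy polysomes. No single Celf1 transcript passed a test, and no reading was taken from its transcripts.

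Qk had 2 transcript rows, Qk-201, annotated as coding with 325 codons, and Qk-202, annotated for nonsense-mediated decay with a reading frame of 319 codons. Qk-202 held 61.5% and 62.5% of the Qk sum in DDC cytoplasm, against 73.4% and 75.9% in chow cytoplasm. On monosomes it held 63.3% and 72.1% in DDC, against 84.4% and 86.2% in chow. DDC shares were below chow shares in both pools, and on light polysomes too, at 61.9% and 82.8% in DDC against 83.8% and 86.3% in chow. On heavy polysomes the share was 59.6% and 77.4% in DDC, against 100% and 36.2% in chow, at gene sums of at most 0.517 FPKM. On heavy polysomes the coding Khdrbs1-201 held 49.2% and 87.4% of Khdrbs1 in DDC, against 100% in both chow libraries, and Khdrbs1-202, annotated for nonsense-mediated decay, held 50.8% and 12.6% in DDC, against 0% in both chow libraries. In the other pools Khdrbs1-201 held at least 71.3% in every library.

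**Figure D4:**
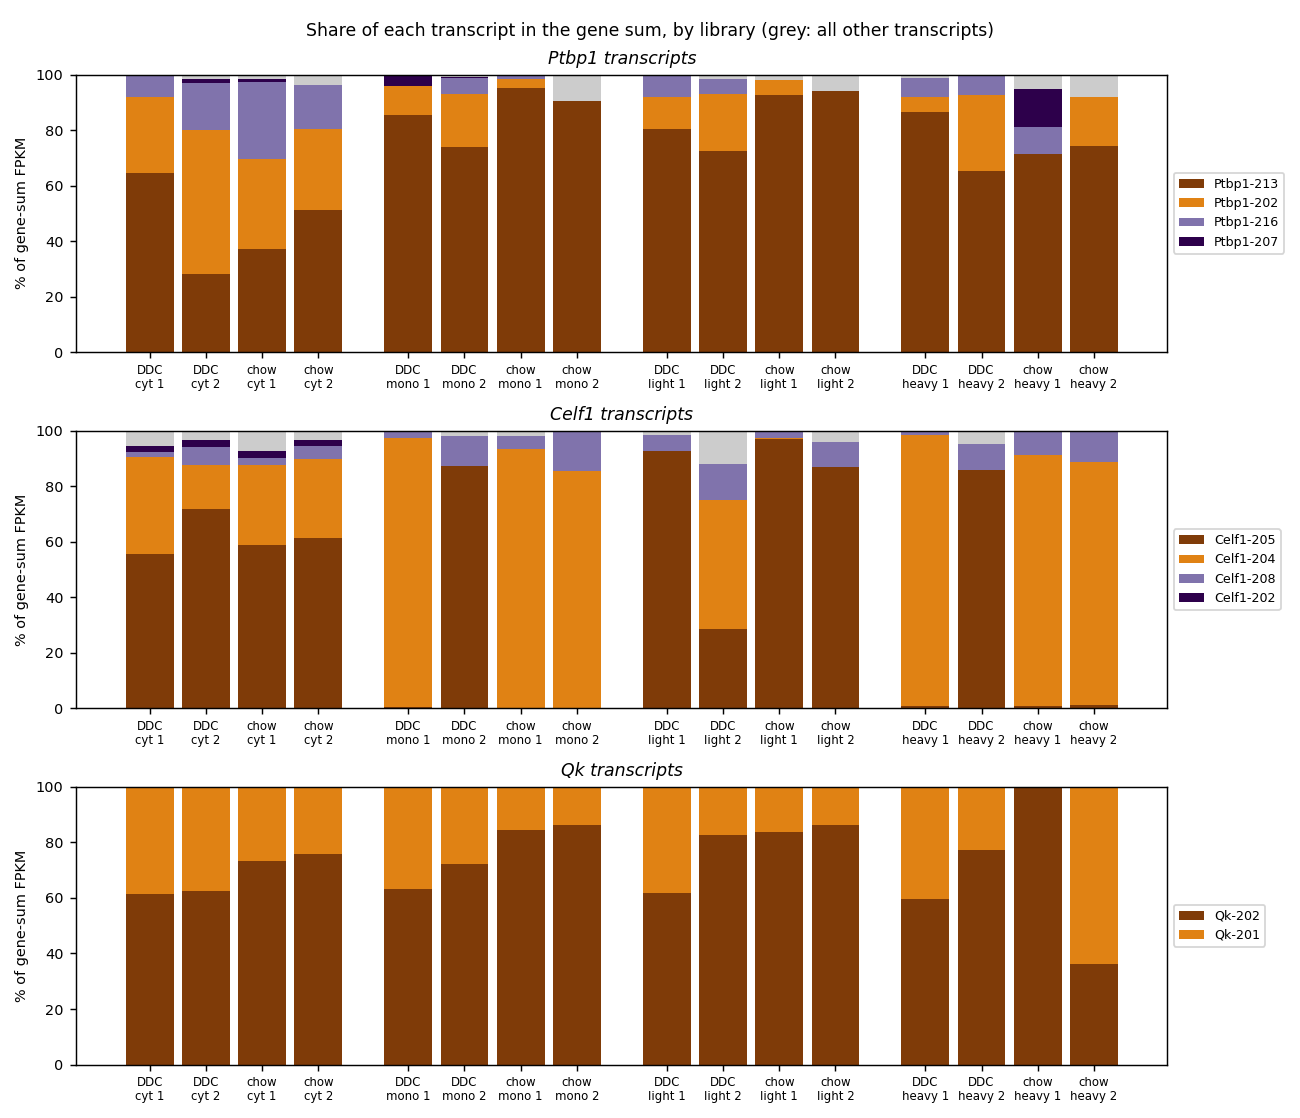
Share of each transcript in the gene-sum FPKM (vertical axis, percent) of Ptbp1, Celf1 and Qk in each of the 16 libraries, with the DDC libraries left of the chow libraries in each pool and grey for all other transcripts. Ptbp1-213 holds most of Ptbp1 in every ribosome fraction, and Qk-202 is lower in DDC than in chow in cytoplasm, on monosomes and on light polysomes. Celf1-204 and Celf1-205 replace each other between the DDC libraries on monosomes and on heavy polysomes, and in chow between fractions. On DDC light polysomes Celf1-205 holds 28.6% to 92.7% and Celf1-204 0% to 46.5%.

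Beyond the 10 members, 21 of 40 other tissue-restricted or developmental splicing regulators were tested, a list chosen with results of these data known. In DDC 3 rose and 2 fell in cytoplasm, 3 rose and 6 fell on monosomes, 3 rose and 2 fell on light polysomes, and 2 rose and 1 fell on heavy polysomes, beside 22.4%, 37%, 30.1% and 24.8% of all genes that passed in either direction. The list's medians were -0.08, -0.32, -0.18 and 0.11 in these pools. Raver1, a partner of Ptbp1, rose in all 4: in cytoplasm it was at 11.9 and 10.97 FPKM in DDC, against 5.54 and 4.68 in chow (1.03 ± 0.21, adjusted p = 0.00469, limma), and on heavy polysomes at 10.9 and 9.59 in DDC, against 2.96 and 2.13 in chow (1.67, adjusted p = 0.000176). Rbpms rose likewise and was at 139 and 132 FPKM on heavy polysomes in DDC, against 40.6 and 45.0 in chow (1.64, adjusted p = 0.00351). A1cf, a cofactor of apolipoprotein B editing, fell in cytoplasm to 3.75 and 5.49 FPKM in DDC, against 15.4 and 8.49 in chow (-1.17, adjusted p = 0.0237). Zfp638 fell on monosomes to 0.469 and 2.16 FPKM in DDC, against 10.3 and 9.67 in chow (-2.35, adjusted p = 0.000723). Ptbp3, a further relative of Ptbp1, did not pass between the diets and fell on heavy polysomes against monosomes in DDC (-1.93, adjusted p = 0.000252) and in chow (-2.14, adjusted p = 5.78e-05). In that comparison 2 of the list rose and 5 fell in DDC, and 1 rose and 11 fell in chow, beside 32.7% and 44.8% of all genes.

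Of 25 genes of epithelial state and its regulators, a setting in which Esrp proteins are known to act, 18 were tested. In DDC 7 rose in cytoplasm, 9 on monosomes, 8 on light polysomes and 7 on heavy polysomes, and 0 fell in any pool, beside the same shares of all genes. Cdh1, the epithelial cadherin, was at 42.3 and 36.5 FPKM in DDC cytoplasm, against 9.89 and 5.94 in chow cytoplasm (2.21 ± 0.29, adjusted p = 0.000305, limma). Vim, the intermediate filament of mesenchymal cells and macrophages, was at 26.1 and 27.1 FPKM on DDC heavy polysomes, against 0.742 and 0 on chow heavy polysomes (4.39, adjusted p = 7.16e-05). Epithelial and mesenchymal genes thus both stood among those that rose, beside the higher ductal, macrophage and stellate sums given above, whose part was not tested.

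The genes whose log2(FPKM + 1) ran most closely with Esrp2 over the 16 libraries were Slc25a20, Mgll, Mlxipl, Acot1 and Nr2c1, with Pearson correlations of 0.867, 0.854, 0.854, 0.840 and 0.839. The points share diets, pools and preparations, so this is a description. Slc25a20, a mitochondrial carrier of acylcarnitines, had a median of 19.3 FPKM in DDC (9.64 to 23.5), against 53.4 in chow (47.8 to 64.7). Mlxipl, the carbohydrate-responsive transcription factor, had a median of 4.32 FPKM in DDC (3.23 to 6.07), against 18.1 in chow (7.76 to 28.6). Mgll, a monoglyceride lipase, had a median of 6.44 FPKM in DDC (4.63 to 8.73), against 52.5 in chow (32.9 to 93.3). All 3 were lower in DDC without overlap over the 8 libraries of each diet, as was Acot1, while Nr2c1 overlapped between the diets. Genes picked for running with Esrp2, itself lower in DDC, are likely to be lower in DDC too, so the separation is no separate result. Its share over all genes was not counted. Esrp2 itself ran from 7.41 to 12.1 FPKM in DDC and from 10.3 to 16.2 in chow. Among the members the correlation with Esrp2 ran from -0.43 for Ptbp1 to 0.35 for Mbnl1.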

How the data were processed

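Sequencing libraries were made from polyadenylated RNA with a stranded kit, per the labels' protocols. Among the tools in the submitters' processing notes are STAR 2.4.2a, Cuffnorm, Picard 1.119, Trimmomatic and bcl2fastq 2.17.1.14; the notes give the builds GRCm38 and mm10. The deposited values were read as FPKM of single transcripts, since those notes name Cuffnorm and the values are not whole, although the file's name speaks of counts. Cuffnorm's options are not given in the sources used here.

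Of 117592 rows, 116728 (99.3%) matched GENCODE M21 transcripts and were summed by gene. The filter kept 11790 genes that reached 1 FPKM in 2 or more libraries. Where both libraries of a group list 0 for a gene that reaches 100 FPKM in another group, that group's values were set to missing (61 genes, no member). In R 4.3.3, limma 3.58.1 fitted 8 group means to the log2(FPKM + 1) of 16 libraries, allowing a variance trend, with 8 residual degrees of freedom. Adjusted p (Benjamini-Hochberg) under 0.05 was called passed, and a fold change on this scale understates the change of low genes. Transcripts were fitted the same way. The script was tested on simulated data.

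The 10 members, the gene lists and the tests were chosen with earlier results of these data known. Named were all members, up to 4 transcripts of each, up to 4 called genes per list and direction, the 5 genes closest to Esrp2 and the defining markers, of which 1 is not reported here. Labels name shared preparations within a diet, so that a number pairs the fractions of that diet but does not pair DDC with chow: replicate deviations correlated at 0.357 to 0.536 between chow fractions (0.514 to 0.749 with chow cytoplasm), 0.305 to 0.365 between DDC fractions and -0.0938 to 0.0702 between diets, and at -0.0499 to 0.161 between DDC cytoplasm and DDC fractions. The other settings tried are a pseudocount of 0.1, other filters, equal totals, quantile normalization, protein-coding transcripts only, no variance trend, the compared groups only, the replicate block, zeros kept and libraries left out.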

Additional observations from a re-analysis of the deposited data

How the results depend on the processing

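Of 1233 recomputed values of 81 results of member genes (9 genes in 9 comparisons), 1124 kept direction and side of the threshold, 31 lost a call, 22 gained one, 56 changed sign while called in neither and 0 called values reversed. The causes were not tested. Of the genes called higher or lower, the share called higher between the diets was 55.2% to 56.9% as deposited and 72.7% to 81.9% with equal totals, and for heavy polysomes against monosomes 55.6% (DDC) and 52.9% (chow) as deposited and 22.6% and 25.1% with equal totals. For the diet differences of heavy polysomes and of monosomes against cytoplasm, 7 of 12 and 3 of 5 called genes were higher as deposited, 14 of 40 and 4 of 20 with equal totals, and 3 of 7 and 4 of 14 with quantile normalization.

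The number of genes called moved by over 1.5 times as follows. In the fit to the compared groups only it was 4288 in cytoplasm (2630 in the fit to all groups), 1818 on monosomes (4346), 398 on heavy polysomes (2911), 658 for heavy polysomes against monosomes in DDC (3842) and 2716 in chow (5270), and 1, 1 and 2 for the diet differences of heavy polysomes against cytoplasm (12), of heavy polysomes against monosomes (223) and of monosomes against cytoplasm (5). Without chow preparation 1 it was 1001, 1829 and 1881 in cytoplasm and on light (3541) and heavy polysomes, 3029 for heavy polysomes against monosomes in chow, and 6, 84 and 13 for the diet differences. With 1 library left out it ran from 1163 to 1274 in cytoplasm, from 2016 to 2624 on light polysomes, and from 2 to 34, 10 to 400 and 3 to 46 for the diet differences. For heavy polysomes against cytoplasm it was 5 with a pseudocount of 0.1, 40 with no filter, 40 with equal totals, 7 with quantile normalization and 25 with zeros kept. For heavy polysomes against monosomes it was 404 with protein-coding transcripts only. For monosomes against cytoplasm it was 1, 64, 20, 14, 18 and 41 under these settings in the same order. With the replicate block it was 623 for heavy polysomes against monosomes, 8 for heavy polysomes against cytoplasm and 11 for monosomes against cytoplasm; among the members' genes the block changed the call of Mbnl1 alone, given with its result. Genes of low FPKM, such as Qk on heavy polysomes and Ptbp2, rest on few fragments.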
